A study of Mus musculus with 4 samples.

Results

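The genes described here encode the components of MAP kinase signalling that were profiled by ATAC-seq in fibroblasts of the mouse without Rela or without Kindlin-2. ATAC-seq uses the Tn5 transposase to cut open DNA, so that more fragments from a region stand for a more accessible region. The members were the genes whose KEGG annotation in the Rela table held the MAPK pathway and neither the cell cycle nor the spliceosome pathway. Fos, Jund, Map3k14, Tgfb2 and Tgfbr2 were left out. The rule gave 100 genes of the 9170 assigned to a region in the Rela table, with 118 regions of 28445. By gene name, 34 of these genes had 37 regions among the 5727 of the Kindlin-2 table. All 155 member regions had a mean signal of at least 1, the minimum used here.

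MAP kinase cascades carry signals from growth factors, cytokines and stress to the nucleus. A MAP3K phosphorylates a MAP2K, which phosphorylates a MAPK. The ERK branch is fed by receptor tyrosine kinases through RAS and RAF, and the JNK and p38 branches by inflammatory and stress signals. Dual-specificity phosphatases of the Dusp family switch the kinases off, and several Dusp genes are themselves induced by the pathway. In fibroblasts these cascades are known for driving proliferation and the response to serum.

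The 4 genotypes were Rela knockout and Rela wild-type cells of the 3T3 mouse embryo fibroblast line, and Kindlin-2 knockout and Kindlin-2 floxed mouse fibroblasts from kidney. Rela encodes the p65 subunit of NF-kB, and Kindlin-2 is an adaptor that binds integrins. Per the labels, all cells were at passages 15 to 20 in medium with calf serum and 50000 cells entered each library. The sources used here do not say how the knockouts were made or whether each was 1 clone. The design text gives 2 biological replicates per genotype, but each table holds 1 value column per genotype. No difference between genotypes could therefore be tested, and intervals in brackets are exact 95% intervals for counting error alone. Regions with log2((knockout + 1)/(control + 1)) of at least 1 in size, a 2-fold difference, are called higher or lower. Where cells differ in how many have a region open, this cannot be told apart from a change in every cell.

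The signal summed to 1458609 in Rela knockout and 1386832 in Rela wild-type cells, and, outside mitochondrial DNA, to 114217 in Kindlin-2 knockout and 134996 in Kindlin-2 floxed cells. With mitochondrial DNA the Kindlin-2 sums were 827408 in knockout and 1655317 in floxed cells, so most of the signal in that table was mitochondrial. Member regions held 0.568% of the summed signal in Rela knockout and 0.603% in Rela wild-type cells. The median member region had a signal of 51 in Rela knockout and 60 in Rela wild-type cells, and of 17 in Kindlin-2 knockout and 19 in Kindlin-2 floxed cells. In implied counts these medians were about 53.7 in Rela knockout, 87.8 in Rela wild-type, 17 in Kindlin-2 knockout and 14 in Kindlin-2 floxed cells, so the Kindlin-2 values are the less precise. The Kindlin-2 knockout count is the signal itself, with a factor of 1 used because none fitted. Its depth, and with it the Kindlin-2 intervals, is therefore uncertain. Of 11 fibroblast markers 7 had a region in the Rela table, among them Vim, Pdgfra and Pdgfrb, and 1 (Fn1) in the Kindlin-2 table. Of these, S100a4 was higher in Rela knockout cells (133 in knockout, 46 in wild type), 1 of 2 Col1a2 regions was lower there, and Fn1 was lower in Kindlin-2 knockout cells (12 in knockout, 26 in floxed). The Fn1 interval there included equal levels (2.17-fold lower, 0.993 to 4.87), and its log2 ratio was -0.97 after loess scaling. None of the 4 epithelial and 2 endothelial markers had a region in either table. Of the leukocyte markers, a region 4633 bp from the start of Ptprc held 33 in Rela knockout and 56 in Rela wild-type cells. The Ptprc region in the other table was called higher, with 27 in Kindlin-2 knockout and 10 in Kindlin-2 floxed cells (ratio 2.70, 1.20 to 7.71). Cd68 held 12 in Rela knockout and 14 in Rela wild-type cells. The part of these differences in the results was not tested.

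Promoter sequences were available for 78 of the 99 members with a symbol, from RefSeq on GRCm38.p6, as windows from 250 bases before to 50 after a gene's start. In 39 genes the window's start was the gene start of the deposited table. A total of 62 members had a window that overlapped a region of the Rela table. The 4 windows below are those of Egfr, whose regions differed in both knockouts, of Mapkapk3, with the greatest ratio among the members, of Map3k7, which was past 2-fold lower in the Rela knockout under each scaling tried, and of Nfkb2, which had the most NF-kB matches. Capitals mark a match to the ETS letters CCGGAAG or to the 10-letter NF-kB motif on either strand. The Egfr window lies at chr11:16751953-16752252 (plus strand), that of Mapkapk3 at chr9:107289828-107290127 (minus strand), that of Map3k7 at chr4:31963857-31964156 (plus strand) and that of Nfkb2 at chr19:46304487-46304786 (plus strand).
Egfr: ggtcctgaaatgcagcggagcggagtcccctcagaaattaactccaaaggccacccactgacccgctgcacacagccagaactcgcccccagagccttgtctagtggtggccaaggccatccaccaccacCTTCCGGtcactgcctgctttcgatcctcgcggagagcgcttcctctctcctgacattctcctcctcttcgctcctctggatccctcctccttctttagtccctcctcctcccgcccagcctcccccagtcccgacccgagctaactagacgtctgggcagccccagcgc
Mapkapk3: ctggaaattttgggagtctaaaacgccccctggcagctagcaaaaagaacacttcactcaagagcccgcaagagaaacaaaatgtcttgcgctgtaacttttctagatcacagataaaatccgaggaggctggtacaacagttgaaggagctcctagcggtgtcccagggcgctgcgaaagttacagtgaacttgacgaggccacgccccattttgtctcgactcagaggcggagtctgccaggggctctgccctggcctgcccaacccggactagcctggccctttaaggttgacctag
Map3k7: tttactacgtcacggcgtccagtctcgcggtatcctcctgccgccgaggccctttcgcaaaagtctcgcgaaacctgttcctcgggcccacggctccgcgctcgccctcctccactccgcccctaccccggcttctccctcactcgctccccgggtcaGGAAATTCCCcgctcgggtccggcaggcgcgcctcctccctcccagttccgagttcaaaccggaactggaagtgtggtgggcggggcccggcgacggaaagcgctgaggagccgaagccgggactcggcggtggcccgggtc
Nfkb2: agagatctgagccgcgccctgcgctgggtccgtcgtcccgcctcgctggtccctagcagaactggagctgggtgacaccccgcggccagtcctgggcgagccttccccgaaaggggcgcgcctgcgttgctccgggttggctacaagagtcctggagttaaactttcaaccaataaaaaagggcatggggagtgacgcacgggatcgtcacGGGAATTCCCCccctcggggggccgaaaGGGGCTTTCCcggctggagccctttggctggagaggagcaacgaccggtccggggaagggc
The Egfr window held 1 ETS match, which began 120 bases before the start. The Map3k7 window held 1 NF-kB match, and the Nfkb2 window held 3, of which a pair overlapped each other. The Map3k7 match began 92 bases before the RefSeq start, which is not the gene start of the deposited table. In the Mapkapk3 window none of the motifs was found.

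Among members with an open promoter window, 9 of 62 (14.5%) held the NF-kB motif, against 5.30% of all 6494 genes with such a window and 5.14% of all 27025 genes with a window. These 9 were Il1r1, Map3k7, Taok3, Rras, Nlk, Rps6ka5, Nr4a1, Nfkb2 and Flna. In 8 of them the window with the match overlapped the member's own region. That of Il1r1 was a second window, away from the region described here. In the Rela pair the log2 ratio of the overlapped region was -1.17 at Map3k7 and -0.76 at Nr4a1. At Taok3, Rras, Nlk, Rps6ka5, Nfkb2 and Flna it lay between 0.12 and 0.62. Whether the motif goes with these ratios was not tested. The ETS letters were found in 8 members (12.9%), against 21.5% of genes with an open window and 9.93% of all genes. The AP-1 letters TGANTCA were found in 5 members (8.06%), against 6.34% of genes with an open window and 8.97% of all genes. These are matches of letters in a window and show no binding. The windows of the members had a median GC content of 65.7%, against 62.3% in all open windows.

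Rela knockout 3T3 fibroblasts were set against Rela wild-type ones. In the knockout the promoter of Mapkapk3, which encodes a kinase activated by p38, was 19.25-fold higher, and that of Egfr, the EGF receptor gene, 3.33-fold higher. Promoters of Map3k7, which encodes the TAK1 kinase of the cytokine branch, and of Ppp3cb, a calcineurin catalytic subunit gene, were 2.28-fold and 2.35-fold lower. The genes of the MAPK tier itself all lay within 2-fold. Of 118 member regions 6 were higher and 10 lower, which is 5.08% and 8.47%. Over all 28332 regions tested 22.4% were higher and 21.0% lower. Of the 99 member promoters, with a centre within 2500 bp of the gene start, 5.05% were higher and 9.09% lower, against 11.1% and 11.6% of all 6879 promoter regions of protein-coding genes. The members' shares stood below both backgrounds, a difference that was not tested. Member regions were stronger than the table's regions, with a median mean signal of 57.2 against 35, and close to protein-coding promoters, with 56.0. Their median log2 ratio was -0.03, against 0.00 over all regions and -0.03 over protein-coding promoters. For 15 of the 16 called regions the counting interval left out equal levels, the exception being a weak region of Map2k3. Over all regions this held for 11747 of the 12279 called. As a share of regions tested, 12.7% of member regions and 41.5% of all regions were both called and had such an interval.

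**Figure D1:**
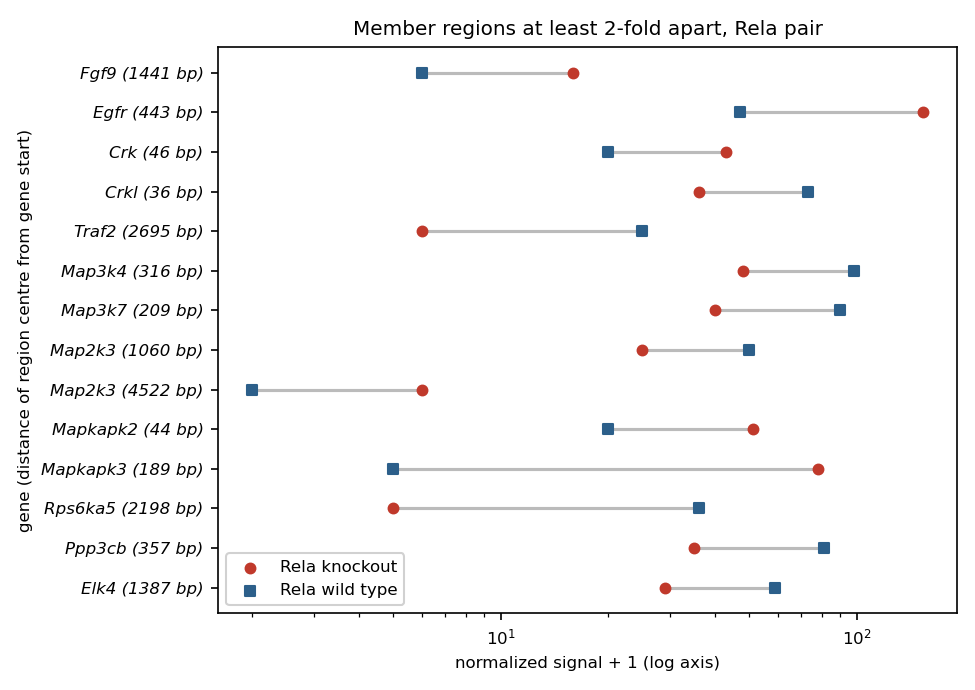
Normalized signal plus 1 (log axis) of 14 of the 16 member regions at least 2-fold apart, in Rela knockout (circles) and Rela wild-type cells (squares), 1 row per region in order of role with the distance of its centre from the gene start. Mapkapk3 has the longest line (77 in knockout, 4 in wild type), and 8 regions have the knockout circle left of the wild-type square.

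Among 6 ligand genes with 7 regions, 1 region was higher and 1 lower. Fgf9, a fibroblast growth factor gene, had a region centred 1441 bp from the start with 15 in Rela knockout and 5 in Rela wild-type cells, a ratio of 3.00 (1.24 to 9.13). Fgf18 had the highest signal of the ligand genes within 2-fold, with 90 in knockout and 100 in wild-type cells. Fgf1, Fgf7 and Bdnf had log2 ratios between -0.03 and 0.08.

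In the receptor group 1 of 7 genes was called. The Egfr region (chr11:16752015-16753276, centre 443 bp from the start) held 153 in Rela knockout and 46 in Rela wild-type cells (ratio 3.33, 2.50 to 4.51; log2 ratio 1.71). Its surroundings were also higher in the knockout: the median log2 ratio of the 50 nearest regions was 0.71, and centred on them the Egfr value was 0.999, just short of the threshold. With the whole of chromosome 11 centred it was 1.52. The Tgfbr1 promoter, of a TGF-beta receptor gene, held 111 in knockout and 82 in wild-type cells, and that of Il1r1, the interleukin-1 receptor gene, 28 in knockout and 46 in wild-type cells. Both were within 2-fold, as were Fas, Fgfr1, Pdgfra and Pdgfrb, with log2 ratios between -0.36 and 0.35.

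The adaptors, GTPases and their regulators formed the largest group, with 19 genes and 23 regions, of which 1 was higher and 3 lower. Crk and Crkl are related adaptor genes. The Crk region 46 bp from the start held 42 in Rela knockout and 19 in Rela wild-type cells, a ratio of 2.21 (1.33 to 3.64), while the other Crk promoter region, 1234 bp away, held 20 in knockout and 31 in wild-type cells (log2 ratio -0.61). The Crkl promoter held 35 in knockout and 72 in wild-type cells, 2.06-fold lower (1.39 to 3.06). Neither call held when regions were centred on their neighbours, with log2 ratios of 0.64 for Crk and -0.61 for Crkl, or with a pseudocount of 5, with 0.97 and -0.94. The promoter of Hras, a RAS GTPase gene, held 46 in knockout and 48 in wild-type cells. Traf2, an adaptor of the TNF receptor, had 5 in knockout and 24 in wild-type cells at a region 2695 bp from the start, 4.80-fold lower (1.97 to 16.5). At its promoter Traf2 had 24 in knockout and 45 in wild-type cells, a log2 ratio of -0.88. Both Traf2 regions were thus lower in the knockout, but the promoter was not called. Gna12, a G protein gene, had the highest signal of the genes within 2-fold by mean, with 192 in knockout and 215 in wild-type cells. Gng12 (42 in knockout, 21 in wild type) and Tab2, an adaptor of TAK1 (38 in knockout, 76 in wild type), had ratios of exactly 2 and stayed just short of the threshold because 1 was added to each value.

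None of 10 regions of upstream kinases was called. The Map4k3 promoter held 76 in Rela knockout and 132 in Rela wild-type cells, and that of Prkaca, a catalytic subunit of protein kinase A, 113 in knockout and 66 in wild-type cells, with log2 ratios of -0.79 and 0.77. With chromosomes centred these were -0.23 and 0.15, and centred on neighbouring regions -0.21 and 0.29. Of 11 MAP3K and RAF genes with 1 region each, 2 were lower and 0 higher. The Map3k7 promoter (chr4:31963552-31964224) held 39 in knockout and 89 in wild-type cells, 2.28-fold lower (1.60 to 3.33), and its log2 ratio lay between -1.39 and -1.10 under the 5 other scalings and pseudocounts tried. Map3k4, a MAP3K of the stress branches, held 47 in knockout and 97 in wild-type cells, 2.06-fold lower (1.47 to 2.88). Regions of chromosome 17 had a median log2 ratio of -0.56, and with chromosomes centred the Map3k4 value was -0.47. The Braf promoter, of a RAF kinase gene, held 16 in knockout and 18 in wild-type cells. The strongest region of the group, at Map3k3, held 192 in knockout and 208 in wild-type cells.

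In the MAP2K tier Map2k3, which encodes a kinase that activates p38, had 3 regions that did not go the same way. The region 1060 bp from the start held 24 in Rela knockout and 49 in Rela wild-type cells, 2.04-fold lower (1.30 to 3.41), with a log2 ratio at the threshold that was -0.90 with a pseudocount of 5 and -0.96 after loess scaling. Those 3473 and 4522 bp from the start held 31 and 5 in knockout cells, against 16 and 1 in wild-type cells. The 4522 bp region was called with a ratio of 5.00, but its interval reached below 1 (0.777 to 329) and its log2 ratio was 0.74 with a pseudocount of 5. Map2k1, Map2k2, Map2k4 and Map2k6 were within 2-fold, and Map2k1, an activator of ERK, held 63 in knockout and 76 in wild-type cells. Of the 6 MAPK genes, Mapk8 and Mapk9, which encode JNK kinases, Nlk and Mapk7 had ratios above 1. Mapk7 was nearly equal, with 88 in knockout and 87 in wild-type cells. Mapk8 held 94 in knockout and 57 in wild-type cells (ratio 1.65, 1.23 to 2.25), Mapk9 155 in knockout and 109 in wild-type cells, and Nlk 110 in knockout and 71 in wild-type cells. The p38 gene Mapk14 held 40 in knockout and 46 in wild-type cells. The counting intervals of Mapk8, Mapk9 and Nlk left out equal levels and those of Mapk7 and Mapk14 did not. Centred on neighbouring regions the log2 ratios were 0.75 for Mapk8, 0.28 for Mapk9, -0.03 for Nlk and 0.63 for Mapk14.

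**Figure D2:**
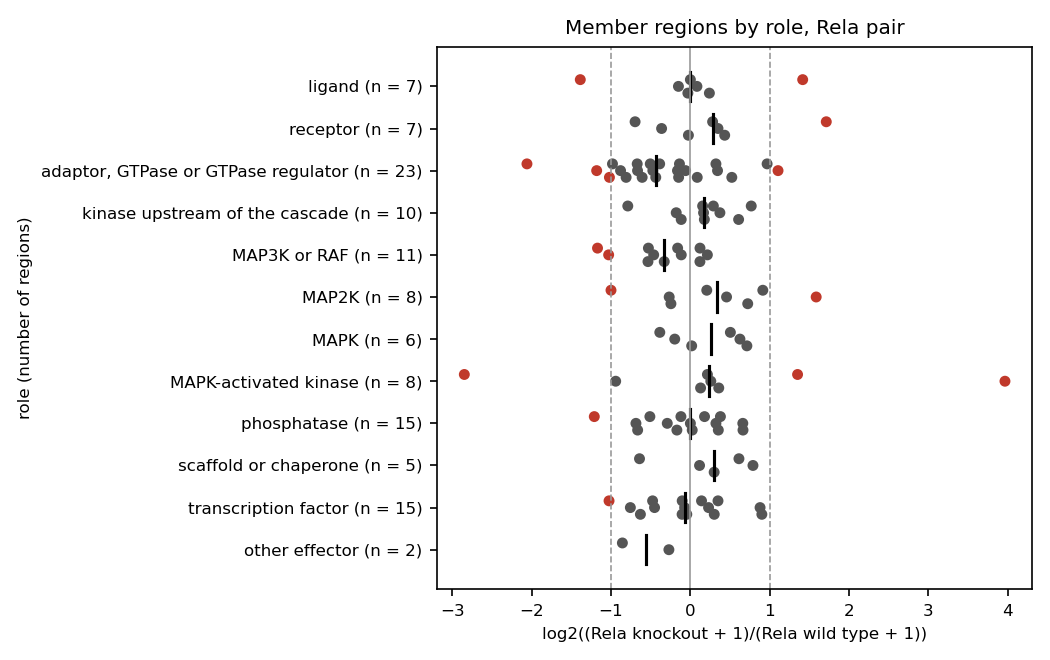
Log2 ratio of Rela knockout over Rela wild-type signal (1 added to each) for member regions with a gene symbol, by role in the cascade; each point is a region, black bars are medians, dashed lines mark 2-fold and red points lie at or past it. The 6 MAPK regions and the 10 regions of upstream kinases lie between the dashed lines, and the MAPK-activated kinases span the widest range, from -2.85 to 3.96.

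Kinases activated by MAPKs held the most extreme ratios. The Mapkapk3 promoter (chr9:107289324-107290051) had a signal of 77 in Rela knockout and 4 in Rela wild-type cells, a ratio of 19.25 (8.25 to 52.6). Its log2 ratio of 3.96 lay between 3.19 and 4.29 under the other scalings and pseudocounts. Mapkapk2, the gene of the related kinase MK2, had 2 promoter regions with opposite differences. The one 44 bp from the start held 50 in knockout and 19 in wild-type cells (ratio 2.63, 1.63 to 4.32), and the one 834 bp away held 24 in knockout and 47 in wild-type cells (log2 ratio -0.94). For Rps6ka5, the gene of the chromatin kinase MSK1, a region 2198 bp from the start held 4 in knockout and 35 in wild-type cells, 8.75-fold lower (3.37 to 35). The main Rps6ka5 promoter region, 244 bp from the start, held 187 in knockout and 161 in wild-type cells. The difference at this gene was therefore in the weaker region. The Rps6ka2 promoter was strong in both, with 210 in knockout and 192 in wild-type cells.

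Of 15 phosphatase regions 1 was lower and 0 higher. The Ppp3cb promoter, of a calcineurin catalytic subunit gene, held 34 in Rela knockout and 80 in Rela wild-type cells, 2.35-fold lower (1.60 to 3.50), and its log2 ratio was -0.93 with chromosomes centred. Genes of the other calcineurin subunits, Ppp3ca and Ppp3r1, were within 2-fold. Among the Dusp genes, Dusp1 held 114 in knockout and 184 in wild-type cells (log2 ratio -0.69), and the Dusp4 promoter region 82 bp from the start held 52 in knockout and 83 in wild-type cells. Centred on neighbouring regions the Dusp1 value was 0.22 and this Dusp4 value -1.21. Dusp6, a phosphatase gene induced by ERK activity, held 96 in knockout and 75 in wild-type cells at its start (log2 ratio 0.35). Centred on neighbouring regions this Dusp6 value was 0.83, and with chromosomes centred 0.93, both within 2-fold. The remaining Dusp regions had log2 ratios between -0.29 and 0.35. The strongest member region of the table, at Ppm1b, held 301 in knockout and 327 in wild-type cells. The 5 regions of scaffold genes, among them the arrestin gene Arrb2 and the filamin genes Flna and Flnc, were within 2-fold, with 155 in knockout and 143 in wild-type cells at Flna.

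Transcription factor genes had 15 regions with 1 lower and 0 higher. Elk4, which encodes a partner of SRF phosphorylated by ERK, held 28 in Rela knockout and 58 in Rela wild-type cells at a region 1387 bp from the start, 2.07-fold lower (1.33 to 3.20). The Elk4 log2 ratio was -0.97 with chromosomes centred, -0.98 after loess scaling and -0.93 with a pseudocount of 5. Both Srf regions had ratios below 1, with log2 ratios of -0.63 and -0.45. Centred on neighbouring regions these were 0.22 and 0.40, so their sign was not kept. Jun, the AP-1 gene, held 286 in knockout and 232 in wild-type cells. Among NF-kB subunit genes, the Rela promoter held 27 in knockout and 21 in wild-type cells, that of Relb 67 in knockout and 36 in wild-type cells, that of Nfkb1 39 in knockout and 42 in wild-type cells, and that of Nfkb2 251 in knockout and 214 in wild-type cells. None of these passed 2-fold, and Relb came nearest with a log2 ratio of 0.88. Centred on neighbouring regions the Relb value was 0.22. The immediate-early gene Nr4a1 held 44 in knockout and 75 in wild-type cells (log2 ratio -0.76). The effector gene Pla2g4a, of a phospholipase, had a log2 ratio of -0.86, which was -0.28 centred on neighbouring regions. The 1 member without a gene symbol, which the table annotates with JUN kinase kinase activity, held 148 in knockout and 139 in wild-type cells.

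Values between the extremes spread evenly about 0. Of the 118 regions 74 differed by less than 1.5-fold and 28 by 1.5-fold to 2-fold, and 56 ratios were above 1 and 60 below. Of 17 genes with more than 1 region, 9 had regions on both sides of equal levels. The 24 members shared with the TNF pathway of KEGG had 29 regions, 1 higher and 4 lower, with a median log2 ratio of 0.18. The 10 shared with its NF-kappa B pathway had 11 regions, 0 higher and 2 lower (at Map3k7 and Traf2), with a median of -0.14. The 21 shared with the ErbB pathway had 24 regions, 2 higher and 2 lower, with a median of 0.02. Members outside these pathways had medians of -0.06, 0.00 and -0.03. Outside the TNF pathway 5 of 89 member regions were higher and 6 lower. Outside the NF-kappa B pathway these were 6 and 8 of 107, and outside the ErbB pathway 4 and 8 of 94. Over all regions 22.4% were higher and 21.0% lower, and among protein-coding promoters 11.1% and 11.6%. Differences between these pathways and the other members were not tested. The pathways share genes, so their counts are not separate.

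Regulators and targets of ERK outside the KEGG map were described from a list of 34 genes, of which 21 had 24 regions in the Rela table. Of these 2 regions (8.33%) were higher and 5 (20.8%) lower, against 22.4% and 21.0% of all regions and 11.1% and 11.6% of protein-coding promoters. The promoter of Etv1, an ETS factor gene, held 182 in Rela knockout and 38 in Rela wild-type cells (ratio 4.79, 3.52 to 6.54), and Ier2, an immediate-early gene, had a region 2743 bp away with 10 in knockout and 3 in wild-type cells. The promoter of Spred1, an inhibitor of RAF activation, held 15 in knockout and 51 in wild-type cells, 3.40-fold lower (1.95 to 6.20), and that of Lrig1, a negative regulator of EGF receptors, 72 in knockout and 150 in wild-type cells. Frs2, an adaptor of FGF receptors, had 12 and 31 in knockout cells at its 2 regions, against 33 and 79 in wild-type cells, and the Egr2 region held 10 in knockout and 32 in wild-type cells. Centred on neighbouring regions, Lrig1 (-0.15), Frs2 (-0.97 and -0.91), Egr2 (-0.87) and Ier2 (0.87) were within 2-fold. Etv5, Spry2 and Spry4, further targets and inhibitors of the pathway, had log2 ratios of -0.78, -0.51 and 0.37.

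In kidney fibroblasts, Kindlin-2 knockout cells were set against Kindlin-2 floxed cells. The Egfr promoter was 4-fold lower in the knockout, and promoters of Ppp3r1, the regulatory calcineurin subunit gene, and of Prkaca were 2.44-fold and 2.38-fold lower. Regions near Map2k3 and Mapk8 were higher in the knockout, against a signal of 1 in floxed cells. Of 37 member regions 5 were higher and 4 lower, which is 13.5% and 10.8%. Over all 5727 regions 16.2% were higher and 9.27% lower, and among 2423 promoter regions of protein-coding genes 8.25% were higher and 10.9% lower. Of 33 member promoters 3 were higher and 3 lower (9.09% each). The median log2 ratio of the members was 0.00, as it was over all regions, and -0.06 for their promoters, against -0.17 for all protein-coding promoters. In 5 of the 9 called regions the counting interval left out equal levels, as in 875 of the 1456 called over all regions. As a share of regions tested, 13.5% of member regions and 15.3% of all regions were called with such an interval.

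Among receptor genes the Egfr region (chr11:16752412-16752590, centre 298 bp from the start) held 5 in Kindlin-2 knockout and 20 in Kindlin-2 floxed cells, 4-fold lower (1.41 to 14.4). Its log2 ratio of -1.81 lay between -2.36 and -1.32 under the other scalings and pseudocounts. The Tgfbr1 promoter held 21 in knockout and 38 in floxed cells, and that of Il1r1 8 in knockout and 4 in floxed cells. In the group of adaptors and GTPase regulators Sos1, an exchange factor for RAS, held 5 in knockout and 12 in floxed cells, 2.4-fold lower with an interval that included equal levels (0.737 to 9.31). The other 5 genes of this group, Daxx, Gna12, Rap1b, Rapgef2 and Rasa1, were within 2-fold.

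Of 5 upstream kinase genes 1 was lower and 1 higher. The Prkaca promoter held 13 in Kindlin-2 knockout and 31 in Kindlin-2 floxed cells, 2.38-fold lower (1.17 to 5.18), and its log2 ratio was -0.91 with chromosomes centred. Stk3, the gene of the MST2 kinase, held 26 in knockout and 50 in floxed cells, and Prkca 22 in knockout and 11 in floxed cells, both just within the threshold. The 5 MAP3K and RAF genes measured, among them Map3k2, Map3k3, Map3k7 and Map3k20, had log2 ratios between -0.43 and 0.74. At Map3k7 the signal was 13 in knockout and 11 in floxed cells.

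Both Map2k3 regions were higher, the one 945 bp from the start with 17 in Kindlin-2 knockout and 1 in Kindlin-2 floxed cells (ratio 17.0, 1.96 to 522) and the one 3491 bp from the start with 16 in knockout and 7 in floxed cells. The second had a ratio of 2.29 with an interval that included equal levels (0.823 to 8.21). Its log2 ratio was within 2-fold with a pseudocount of 5 (0.81), after loess scaling (0.89) and after quantile scaling (0.84). The Mapk8 region 3122 bp from the start held 19 in knockout and 1 in floxed cells (ratio 19.0, 2.22 to 580), while the Mapk8 promoter held 23 in knockout and 29 in floxed cells. A floxed signal of 1 stands for about 1 implied count, which the width of these intervals shows. Map2k4, Mapk9, Rps6ka2 and Rps6ka5 were within 2-fold, with log2 ratios between -0.74 and -0.15.

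Of 5 phosphatase genes, Ppp3r1 was lower, with 18 in Kindlin-2 knockout and 44 in Kindlin-2 floxed cells (2.44-fold, 1.32 to 4.58), and its log2 ratio was -0.99 after loess scaling. Ppm1a was higher, with 12 in knockout and 5 in floxed cells, but was within 2-fold under each of the 5 other scalings and pseudocounts and had an interval reaching below 1 (0.668 to 9.38). Ppm1b, again the strongest member region, held 54 in knockout and 102 in floxed cells, 1.89-fold lower (1.31 to 2.73). Dusp6 held 21 in knockout and 31 in floxed cells, and Ppp3ca 22 in knockout and 23 in floxed cells. The transcription factor genes were within 2-fold. Jun had 36 and 16 in knockout cells at its 2 regions, against 53 and 10 in floxed cells, Max held 14 in both, and Nfkb2 held 26 in knockout and 24 in floxed cells. Of the 34 regulators and targets of ERK outside the map, 5 had a region here (Etv1, Etv5, Lrig1, Phlda1 and Spry2), and none was called.

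**Figure D3:**
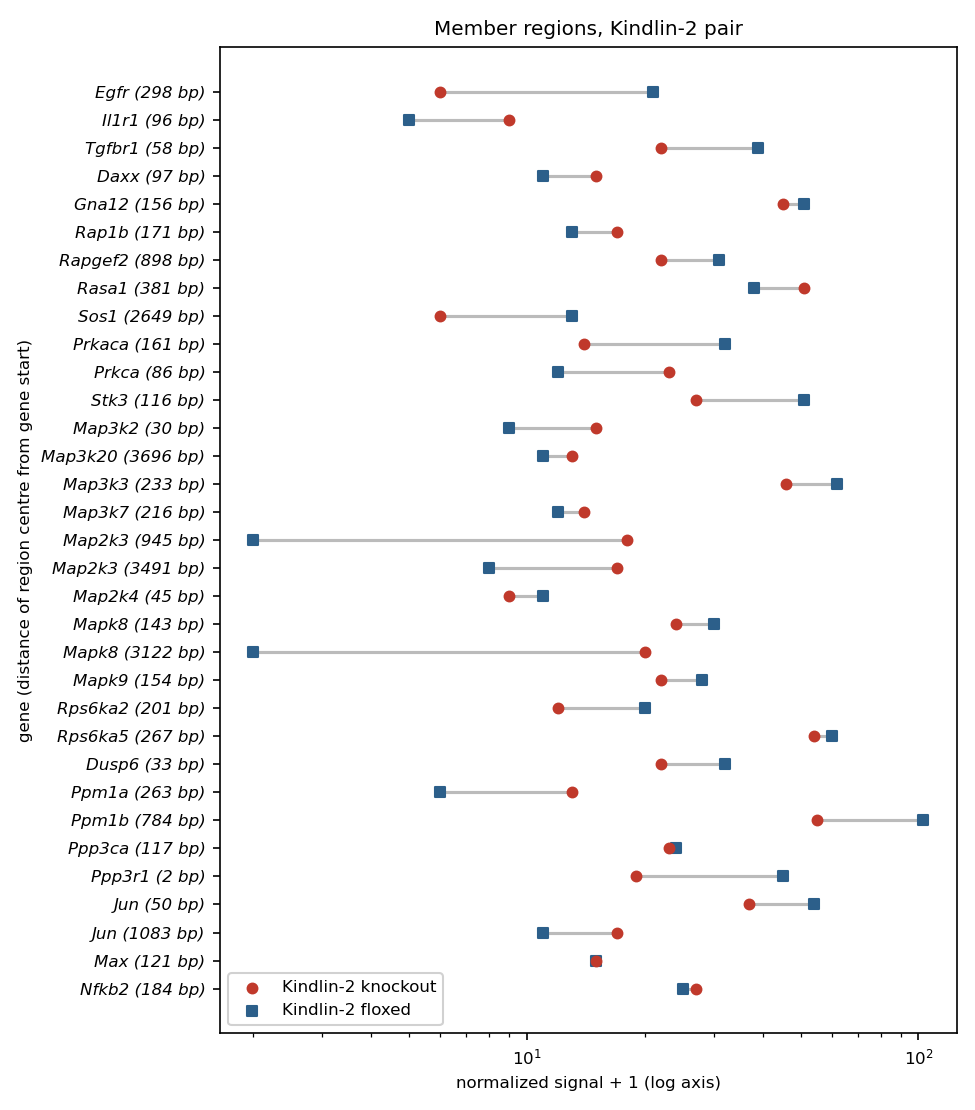
Normalized signal plus 1 (log axis) of 33 of the 37 member regions in Kindlin-2 knockout (circles) and Kindlin-2 floxed cells (squares), in order of role with the distance of each centre from the gene start. The longest lines are those of Mapk8 at 3122 bp (19 in knockout, 1 in floxed) and Map2k3 at 945 bp (17 in knockout, 1 in floxed), and Egfr is lower in the knockout (5 in knockout, 20 in floxed).

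The pairs share no samples and their tables were normalized separately, so the members were set side by side by their ratios alone. A total of 36 pairs of overlapping member regions were found, 1 Rela region at Jun overlapping both Kindlin-2 regions. In 23 pairs (63.9%) the log2 ratios had opposite signs and in 12 (33.3%) the same. Among 2256 pairs at promoters of protein-coding genes 47.5% had opposite signs, and over all 4672 pairs 47.2%. This share describes 1 value column per genotype and was not tested. Of the 36 member pairs 2 were called in both comparisons, Egfr and Map2k3, each in opposite directions. Over promoter pairs 65 of 2256 were called in both, and over all pairs 270 of 4672. Of the 65, 16 were higher in the Rela and lower in the Kindlin-2 knockout and 15 the reverse. Of the 270, these were 52 and 78. The Rela calls of Egfr and Map2k3 were not kept under every alternative. Egfr had 0.999 centred on its neighbours. Map2k3, at the threshold itself, had -0.90 with a pseudocount of 5 and -0.96 after loess scaling. Egfr was 3.33-fold higher in the Rela knockout and 4-fold lower in the Kindlin-2 knockout, and the Map2k3 region about 1 kb from the start was 2.04-fold lower in the Rela knockout and 17.0-fold higher in the Kindlin-2 knockout. The Prkaca promoter had log2 ratios of 0.77 and -1.19, that of Tgfbr1 0.43 and -0.83, and that of Prkca -0.18 and 0.94. The Rela values of Prkaca and Tgfbr1 were 0.29 and -0.01 when centred on neighbouring regions, so the opposite sign of Tgfbr1 was lost there. Among pairs with a call in 1 comparison and the same sign in both, Sos1 had -0.51 and -1.12, Ppp3r1 -0.17 and -1.24 and the farther Map2k3 region 0.91 and 1.09, the Rela value first in each. The Rela value of Sos1 was 0.06 with chromosomes centred and 0.15 centred on neighbouring regions, so its same sign was lost there. In the Kindlin-2 pair the counting intervals of Sos1 and of this Map2k3 region included equal levels.

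**Figure D4:**
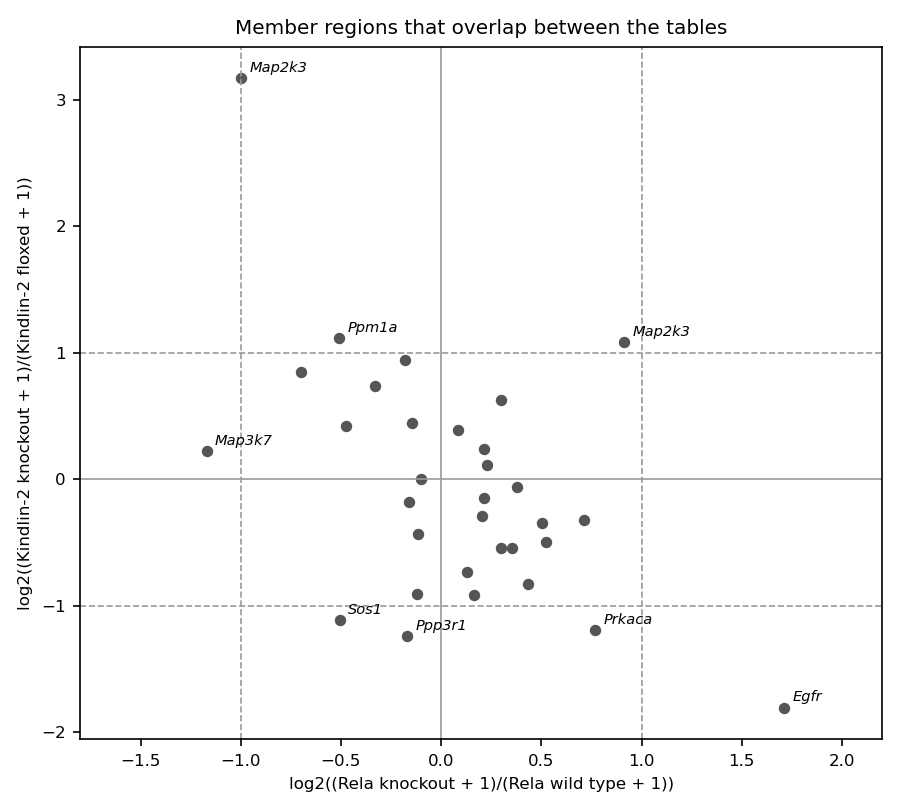
Log2 ratio in the Rela pair (x axis) and in the Kindlin-2 pair (y axis) for 32 of the 36 pairs of member regions that overlap between the tables; each point is a pair, dashed lines mark 2-fold and genes at or past it in either comparison are named. Egfr lies alone at the lower right (1.71 and -1.81) and Map2k3 alone at the upper left (-1 and 3.17).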

How the data were processed

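ATAC-seq was measured in 4 genotypes. Per the submitters' processing notes, which give names without roles, the authors worked on mm10 with STAR 2.4.2a, Trimmomatic 0.33 and FastQC, Picard 1.136, bedtools, deepTools, MACS2 and DESeq2; the sources used here do not give the Tn5 shift, duplicate handling or how replicates were merged. The deposited values are a score: per the labels' table names, a background-corrected signal scaled by the DESeq method within each table, here in whole numbers. They are not read counts, so no count model was used, and with 1 column per genotype the planned limma test could not be made.

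Log2 ratios had 1 added to both values, which understates changes of weak regions; printed ratios and folds are of the values as deposited. Regions entered with a mean of at least 1. Depth was worked out from gaps in the whole values: factors of 0.949 (Rela knockout), 0.683 (Rela wild type) and 1.36 (Kindlin-2 floxed) explained 91.2%, 97.6% and 95.3% of the deviance. No factor explained over 14.0% for the Kindlin-2 knockout, which was given 1, so its depth is uncertain. Values divided by these factors gave implied counts and exact binomial (Clopper-Pearson) 95% intervals of a ratio; they cover counting error only, not replicates or the background correction. Scripts ran in Python 3.11.15 with pandas 2.3.3, scipy 1.17.1 and statsmodels 0.14.6 and were tested on simulated data.

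Genes named were Egfr, all members in the Kindlin-2 table and, per role, up to 3 called genes of at least median signal, the strongest gene within 2-fold, and genes called both ways. Fgf9, Crk, Traf2, Mapkapk2 and other genes outside this rule were named after their values were seen; some members that the rule names are counted but not reported by name or drawn in the plots by gene. Members and lists were chosen with earlier results of these data known. Region coordinates are printed as in the tables; a base of 0 or 1 for starts is not stated there.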

Additional observations from a re-analysis of the deposited data

How the results depend on the processing

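No paired analysis was possible because each genotype had 1 value column. The alternatives were a pseudocount of 5, no filter, regions of at least median signal, loess and quantile scaling, centring of chromosomes or on the 50 nearest regions, promoters alone, and the rule without its exclusions. In the Rela pair, 6 member regions were higher and 10 lower as deposited. With regions of at least median signal these were 2 and 6, and with a pseudocount of 5 the lower regions were 6. With that pseudocount the higher regions were 4, and over the other alternatives they numbered 5 to 7 and the lower ones 8 to 15. Of these calls 3 higher (Mapkapk2, Mapkapk3 and Fgf9) and 4 lower (Traf2, Map3k7 and Rps6ka5 among them) held under the pseudocount of 5, both scalings and both centrings. The median log2 ratio lay between -0.09 and 0.03 under all alternatives.

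In the Kindlin-2 pair the 5 higher regions became 2 with a pseudocount of 5, 2 after loess and 2 after quantile scaling, 3 at promoters and 0 at or above median signal. The 4 lower regions became 2 with chromosomes centred and 2 at or above median signal, where the median log2 ratio was -0.39 in place of 0.00. The calls of Map2k3 at 945 bp, Mapk8 at 3122 bp and Egfr held under the pseudocount, scalings and centrings. Fewer regions enter at or above median signal; causes of the other changes were not tested. For regions of named genes, 569 of the alternative values stayed inside the counting interval, 32 left it and no called value changed sign. The 569 include values without the filter and at median signal or above. These settings leave the ratio of a single region unchanged, so such values could not leave the interval. At a Kindlin-2 signal near the median of 16, few differences under 2-fold can be told from counting error.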
